A study of Mus musculus with 6 samples.

Results

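The slow and cardiac-type muscle isoforms Myh7, Myl2, Myl3, Tnnt1, Tnni1, Tnnc1, Tpm3, Myoz2, Casq2 and Atp2a2, which build the contractile machinery or handle its calcium, were described in RNA-seq libraries of mouse skin. They were 10 of the 21959 genes in the deposited table. The genes were picked by name, with their values in rebamipide and vehicle skin already known, so their differences between the groups are given as a description with no test. The fast isoforms Myh4, Tnnt3 and Tnni2 were taken as the background of ordinary muscle.

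Male C57BL/6 mice aged 7 weeks, with resting (telogen) hair follicles, were shaved on the back. Both groups then had a daily topical dose for 7 days. The vehicle group received 30% dipropylene glycol in water, and the rebamipide group received 3% rebamipide, a mucosal protective drug, on the same schedule. Each group had 3 libraries, 1 from each of 3 mice, prepared from full-thickness dorsal skin that keeps the dermis, the fat and the thin skeletal muscle sheet under it. No mouse carried a transgene or deletion according to the labels.

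Skeletal muscle fibres come in slow and fast types, and each type builds its sarcomere from its own copies of the same parts. The slow copies of the myosin heavy chain, of its light chains and of the calcium-binding troponin subunit are also the copies used in the heart ventricle of many mammals. Mouse skin muscle, the panniculus carnosus, is known as a fast muscle, and brown adipocytes share part of their developmental origin with skeletal muscle.

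Vehicle libraries held 38676018 to 39915276 counted reads, and rebamipide libraries held 32709801 to 34706852. A floor of 3 counts was worth 0.0752 to 0.0917 CPM, the count after scaling to a common library size. The rebamipide libraries stood apart as a group. Mitochondrial genes took 13.28% to 21.96% of their counts against 2.59% to 5.36% in vehicle libraries, and Ucp1, the uncoupling protein of brown fat, had 81048, 220449 and 150572 counts against 0 in all 3 vehicle libraries. The third rebamipide library stood further apart. It held 4 counts of Krt5 and 0 of Krt14, the basal keratinocyte keratins, against 50427 to 77535 and 26099 to 64371 in the vehicle libraries, so defining markers of the labelled tissue were nearly absent from it. Its counts of muscle genes were also low, with 1846 Myh4 counts against 43418 or more elsewhere. Main results are therefore also given without that library. In whole skin, fewer muscle fibres and less RNA per fibre cannot be told apart.

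Sequence upstream of the start site is shown for 3 of the 4 genes with the largest fold changes, and for Myh4 as their fast counterpart. The sequences are RefSeq's, on build GRCm38.p6 and read 5′ to 3′ on the gene's own strand, and each ends before the first annotated transcript start nearby. Capitals mark matches to CATTCC (the core bound by TEAD factors), AGGTCA (the core bound by nuclear receptors), TATAAA, and strict forms of the MEF2 motif (CTA and TAG around 4 A or T bases) and of the SRF motif (CC and GG around 6 A or T bases), each searched on both strands. Looser MEF2 forms were not counted. The windows lie at chr14:54994627-54994876 (minus strand) for Myh7, chr9:110763428-110763645 (plus strand) for Myl3, chr14:31208062-31208311 (plus strand) for Tnnc1 and chr11:67237562-67237811 (plus strand) for Myh4.
Myh7: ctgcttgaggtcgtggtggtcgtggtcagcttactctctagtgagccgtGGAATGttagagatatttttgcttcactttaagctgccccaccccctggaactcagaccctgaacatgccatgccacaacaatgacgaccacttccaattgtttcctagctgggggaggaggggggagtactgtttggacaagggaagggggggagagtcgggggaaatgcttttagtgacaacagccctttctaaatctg
Myl3: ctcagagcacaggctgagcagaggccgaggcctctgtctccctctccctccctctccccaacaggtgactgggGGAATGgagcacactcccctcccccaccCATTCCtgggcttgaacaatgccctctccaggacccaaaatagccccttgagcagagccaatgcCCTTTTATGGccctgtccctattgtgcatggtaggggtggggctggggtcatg
Tnnc1: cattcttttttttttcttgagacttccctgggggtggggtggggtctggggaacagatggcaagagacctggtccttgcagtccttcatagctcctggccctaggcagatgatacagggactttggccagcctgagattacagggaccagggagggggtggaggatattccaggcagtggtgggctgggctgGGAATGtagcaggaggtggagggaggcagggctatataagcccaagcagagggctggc
Myh4: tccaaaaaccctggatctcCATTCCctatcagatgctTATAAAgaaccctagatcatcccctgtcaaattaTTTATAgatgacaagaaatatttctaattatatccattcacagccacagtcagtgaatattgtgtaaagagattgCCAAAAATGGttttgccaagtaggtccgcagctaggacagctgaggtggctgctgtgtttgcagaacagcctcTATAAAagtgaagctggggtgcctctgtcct

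Across the family, 9 of the 10 genes had a RefSeq promoter window, and matches were read in the 250 bases before the RefSeq start, which for some genes reach past another annotated start. CATTCC was matched in Myh7, Myl3 and Tnnc1, 3 of 9 genes, and in 4 of the 9 fast partner genes with a window, against 12.64% of 32851 windows in all. AGGTCA was matched in 2 of 9 slow genes, Myl2 and Tpm3, against 14.02% of windows. The strict MEF2 form was matched in Myoz2 alone (0.5084% of windows) and the strict SRF form in Myl3 alone among the slow genes (1.467%). CANNTG, the letters bound by the myogenic factors, was matched in all 9 slow genes and 7 of 9 fast genes, but also in 66.22% of windows. TATAAA was matched in Myl2 and Tnnt1 (12.37% of windows). A match only says that the letters are there. The RefSeq windows of Myl2 lie at least 7762 bases upstream of the nearest GENCODE coding transcript start, so the Myl2 matches are not from the promoter of that transcript and no Myl2 sequence is printed.

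The slow myosin heavy chain gave the widest separation of the 10 genes. Myh7 encodes the motor protein of slow fibres and of the adult human ventricle (chromosome 14, 55208141 to 55232083, minus strand, on GRCm39, the build of the deposited table). It had 2, 6 and 4 counts in vehicle libraries 1 to 3 and 2120, 947 and 37 counts in rebamipide libraries 1 to 3. The groups did not overlap, and the third rebamipide library was far below the other two. On the length-scaled FPKM scale its level was 0.005938 to 0.01745 in vehicle skin and 0.1237 to 7.522 in rebamipide skin. The fitted log2 fold change was 8.72 (SE 1.60, n = 3 per group), and it rests on vehicle counts so close to the floor that its size depends on how near-zero counts are handled. The spans of Myh7 and Gm17428, on the other strand, share 93 bases, and Gm17428 had 0 counts in all 6 libraries.

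The ventricular and slow light chains followed the same order of libraries. Myl2 encodes the regulatory light chain (chromosome 5, 122239014 to 122251535, plus strand) and had 8, 26 and 8 vehicle counts against 2023, 718 and 30 rebamipide counts. Myl3 encodes the essential light chain (chromosome 9, 110570929 to 110598866, plus strand) and had 5, 18 and 9 vehicle counts against 1043, 414 and 48 rebamipide counts. Neither gene's groups overlapped, although for Myl2 the third rebamipide library lay only slightly above the second vehicle library, at 1.145 against 0.5279 CPM after TMM scaling. The log2 fold change was 6.78 (SE 1.54) for Myl2. For Myl3 it was 6.29 (SE 1.22). Both genes overlap a gene on the other strand in part. Ccdc63, which overlaps Myl2, had 8 to 19 vehicle and 0 rebamipide counts, and Pth1r, which overlaps Myl3, had 636 to 960 vehicle and 461 to 778 rebamipide counts.

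The 3 slow troponin subunits, which switch the thin filament on when calcium binds, differed in how far their groups lay apart. Tnnc1, the calcium-binding subunit of slow and cardiac muscle (chromosome 14, 30930269 to 30933686, plus strand), had 10, 35 and 13 vehicle counts and 1034, 280 and 27 rebamipide counts. Its groups did not overlap after TMM scaling, with 1.030 CPM in the lowest rebamipide library and 0.7107 CPM in the highest vehicle library, but they did overlap when libraries were scaled by total counts alone or read as FPKM. Its log2 fold change was 5.26 (SE 1.33). Tnnc1 lies wholly within the span of Nisch on the other strand, and no source used here states that reads were counted by strand. Nisch had 5689 to 8302 counts in vehicle and 5711 to 6636 in rebamipide libraries, ranges that overlapped.

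Tnnt1, the subunit that ties troponin to tropomyosin in slow fibres (chromosome 7, 4507569 to 4519381, minus strand), had 99, 363 and 44 vehicle counts and 1693, 658 and 35 rebamipide counts. Rebamipide libraries 1 and 2 were above all vehicle libraries. The third was the lowest of the 6 in counts and FPKM, and lay among the vehicle libraries only after TMM scaling (1.336 CPM against 0.9408 to 7.371). Tnni1, the inhibitory subunit of slow fibres (chromosome 1, 135707172 to 135738727, plus strand), had 263, 218 and 19 vehicle counts and 898, 302 and 7 rebamipide counts, so the third rebamipide library was the lowest of the 6. The log2 fold changes were 3.01 (SE 1.34) for Tnnt1 and 2.04 (SE 1.49) for Tnni1.

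**Figure D1:**
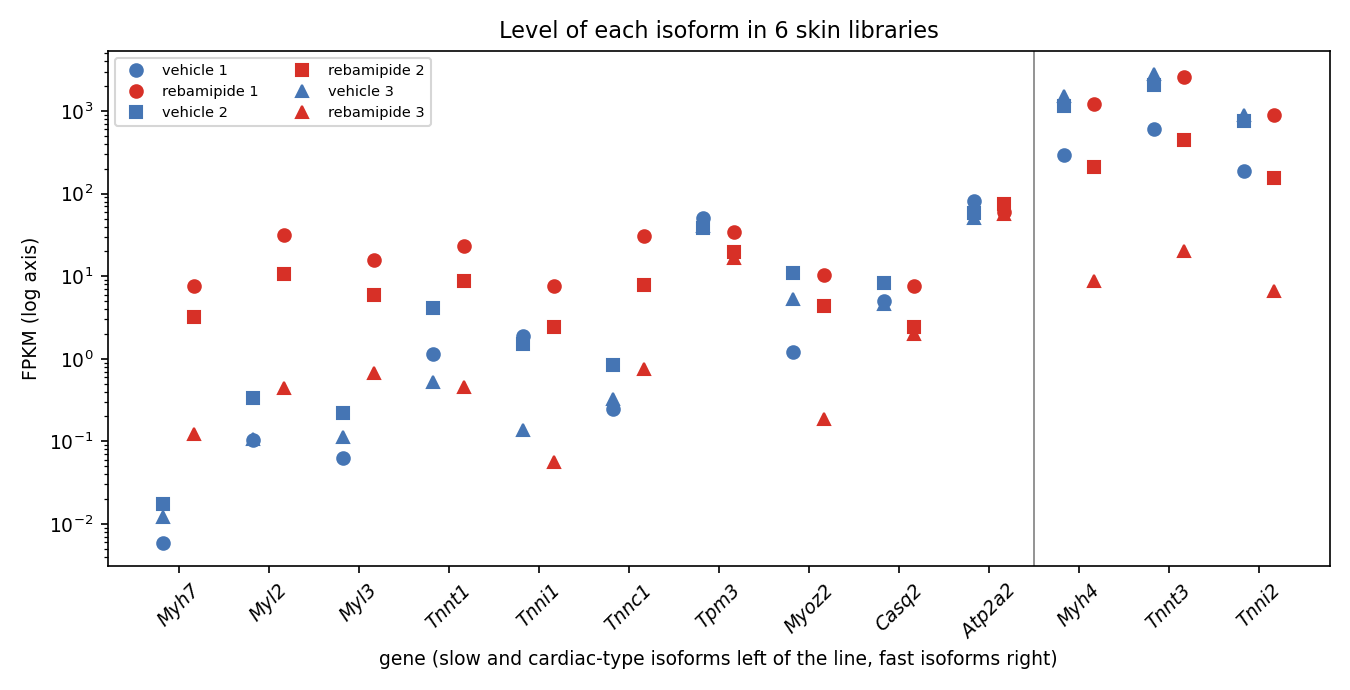
FPKM on a log axis for the 10 slow and cardiac-type isoforms and the 3 fast isoforms, with 1 point per library (blue vehicle, red rebamipide, marker shape the library number). Myh7, Myl2 and Myl3 have every red point above every blue point, while Myh4, Tnnt3 and Tnni2 overlap and are lowest in rebamipide 3.

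The remaining 4 genes were each expressed in vehicle skin, and none separated in the same manner. Tpm3, a tropomyosin of slow fibres that also has non-muscle forms (chromosome 3, 89979956 to 90008209, plus strand), had 12120, 9335 and 9593 vehicle counts and 6805, 4119 and 3465 rebamipide counts. In CPM after TMM scaling these were 189.6 to 242.8 and 132.2 to 224.1, which overlap, and the log2 fold change was -0.30 (SE 0.26). Total-count scaling gave -0.89 for Tpm3.

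Myoz2, which encodes a Z-disc protein that binds calcineurin in slow and cardiac muscle (chromosome 3, 122799855 to 122828664, minus strand), had 160, 1497 and 709 vehicle counts and 1164, 512 and 22 rebamipide counts. Casq2, the cardiac and slow-fibre calsequestrin that stores calcium in the sarcoplasmic reticulum (chromosome 3, 101993731 to 102053830, plus strand), had 536, 911 and 485 vehicle counts and 686, 230 and 187 rebamipide counts. Both sets of groups overlapped. The log2 fold changes were 0.28 (SE 1.25) for Myoz2 and -0.03 (SE 0.51) for Casq2, within 1 SE of 0.

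Atp2a2 encodes SERCA2, the calcium pump of slow and cardiac muscle, and a second form of it is made in nearly all cells (chromosome 5, 122591576 to 122640288, minus strand). It had 19292, 14167 and 11927 vehicle counts and 12054, 15817 and 11985 rebamipide counts, which overlap as counts. After TMM scaling the levels were 386.4, 287.7 and 255.0 CPM against 396.9, 616.4 and 457.4 CPM, with the groups just apart. The log2 fold change of 0.66 (SE 0.28) went to 0.02 with total-count scaling, so its difference depended on the scaling. By FPKM, Atp2a2 was the largest single part of the family, at 47.39% to 57.25% of the summed FPKM of the 10 genes in vehicle libraries and 26.44% to 72.94% in rebamipide libraries.

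In all, 4 of the 10 (Myh7, Myl2, Myl3 and Tnnc1) fell among the genes called higher with edgeR at an adjusted p under 0.05, a call made for 14.1% of the 14875 genes tested, and 0 of 10 were among those called lower, a call made for 6.51%. Groups were apart for 5 of the 10 (those 4 and Atp2a2), with every rebamipide value above all vehicle values, which held for 24.5% of all genes tested, and 0 had every rebamipide value below, which held for 24%. Nothing is read from these counts, since the genes were picked on this contrast. The 4 calls were also not stable. None of the 10 genes was called with limma-voom, which called 2138 genes higher. With edgeR none was called without vehicle library 1, 2 or 3, where 1507, 0 and 1727 of all genes were called higher. The same held without the second rebamipide library, where 1 gene was called in all. Where 0 or 1 gene was called, the loss was not particular to the 10. Over these settings the log2 fold change was 7.55 to 9.09 for Myh7 and 5.73 to 7.56 for Myl2. It was 5.69 to 6.86 for Myl3 and 4.44 to 5.99 for Tnnc1. In the main edgeR fit the median log2 fold change of the 10 was 2.52, beside -0.17 for all genes tested. With total counts alone the median of all genes was -0.78, that of the 10 was 2.01, and 3 of the 10 had groups apart, as did 13% of all genes tested. Without the third rebamipide library 7 of the 10 had groups that did not overlap, against 24.9% of all genes tested in that setting, and the median was 3.10. The log2 fold changes were then 9.30 for Myh7, 7.36 for Myl2, 6.83 for Myl3, 5.82 for Tnnc1, 3.58 for Tnnt1 and 2.63 for Tnni1. Those of Atp2a2, Tpm3, Myoz2 and Casq2 were 0.72, -0.14, 0.85 and 0.27, so the value of Casq2 changed sign. Without the first rebamipide library, the richest in Myh4 of the 3, the values were lower, at 7.81 for Myh7, 5.66 for Myl2, 5.34 for Myl3, 3.91 for Tnnc1, 1.98 for Tnnt1 and 0.84 for Tnni1. Myoz2 was then at -0.64, Casq2 at -0.71, Tpm3 at -0.53 and Atp2a2 at 0.80.

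The fast partners showed no such separation. Myh4, the fastest skeletal myosin heavy chain, had 68883, 276151 and 356308 vehicle counts and 238109, 43418 and 1846 rebamipide counts. Tnnt3 and Tnni2, the fast troponin T and I, were likewise lowest in the third rebamipide library, with 1099 and 342 counts there against at least 24517 and 8006 in the other 5. Of the 11 fast partner isoforms with enough reads to test, 0 were called with edgeR, where 14.1% of all genes tested rose and 6.51% fell. All 11 had overlapping groups, where 24.5% of all genes tested lay apart above and 24% below. The SEs of the 11 genes were 0.95 to 1.55, so not passing says little about them. Their median log2 fold change was -0.38, which was 0.20 without the third rebamipide library, 0.10 without the third vehicle library and -2.21 without the first rebamipide library.

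**Figure D2:**
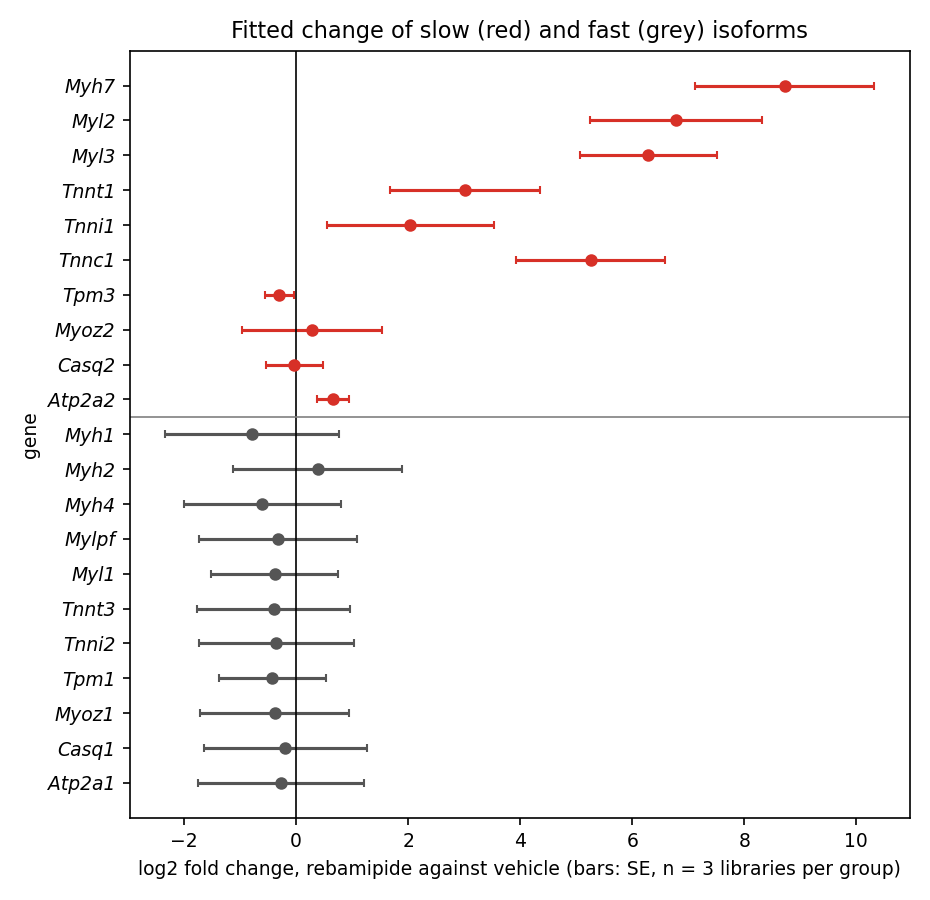
Fitted log2 fold change of rebamipide against vehicle with its SE (bars, n = 3 libraries per group) for the 10 slow isoforms (red) and 11 fast partners (grey). Myh7, Myl2, Myl3 and Tnnc1 lie between 5.26 and 8.72, and the grey points lie between -0.78 and 0.40 with wide bars.

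Because counts of muscle genes varied between libraries, each slow gene was next set against Myh4 within the same library, a ratio that no scaling between libraries can change. Per 100000 Myh4 reads, Myh7 had 2.903, 2.173 and 1.123 reads in vehicle libraries and 890.3, 2181 and 2004 reads in rebamipide libraries. The third rebamipide library, low in the counts themselves, was level with the second here. The vehicle ratios rest on 2 to 6 Myh7 reads, so no fold between the ratios is given.

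The light chains and Tnnc1 were also apart by this ratio. Myl2 had 2.245 to 11.61 reads per 100000 Myh4 reads in vehicle and 849.6 to 1654 in rebamipide libraries. Myl3 had 2.526 to 7.259 against 438.0 to 2600, and Tnnc1 3.649 to 14.52 against 434.3 to 1463. Tnnt1, whose counts overlapped, was apart too, with 12.35, 131.4 and 143.7 reads in vehicle libraries and 711.0, 1516 and 1896 in rebamipide libraries.

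Tnni1 and Myoz2 overlapped narrowly. Tnni1 had 381.8, 78.94 and 5.332 reads per 100000 Myh4 reads in vehicle libraries 1 to 3 and 377.1, 695.6 and 379.2 in the rebamipide libraries, so only the first vehicle library reached the rebamipide range. Myoz2 had 199.0 to 542.1 in vehicle and 488.9 to 1192 in rebamipide libraries. Tpm3, Casq2 and Atp2a2 also overlapped, and all 3 were by far highest in the third rebamipide library, where Myh4 was lowest (649200 Atp2a2 reads per 100000 Myh4 reads).

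**Figure D3:**
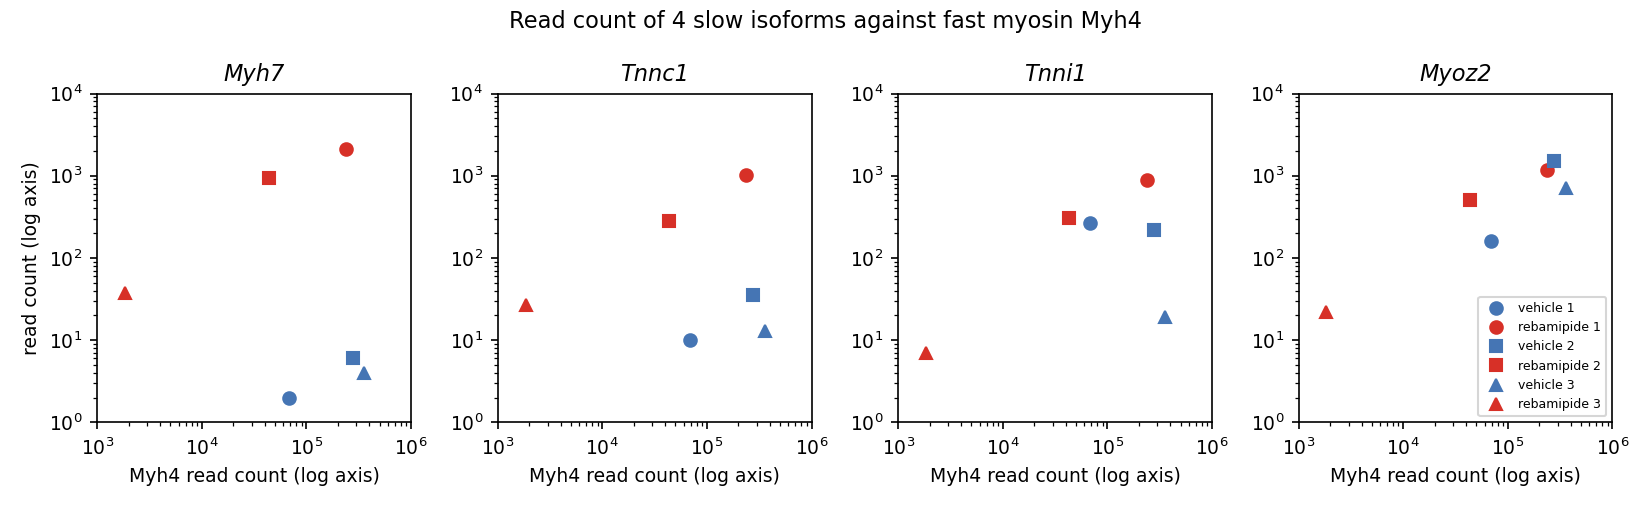
Read count of Myh7, Tnnc1, Tnni1 and Myoz2 against the Myh4 read count in the same library, both on log axes. For Myh7 and Tnnc1 the 3 rebamipide libraries (red) have at least 434.3 reads per 100000 Myh4 reads and the vehicle libraries (blue) at most 14.52, while for Myoz2 these ratios overlap between the groups.

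Levels of different genes can be compared per length, so the share of the slow isoform in the FPKM of each slow and fast pair was also computed. Myh7 made up 0.001731%, 0.001093% and 0.0006682% of the FPKM of Myh7, Myh1, Myh2 and Myh4 in vehicle libraries, and 0.5053%, 1.091% and 1.257% in rebamipide libraries. The rest of the adult myosin heavy chain FPKM came from the fast genes in every library. In the third rebamipide library the Myh7 share of read counts was 37 of 2082, or 1.777% (95% Wilson interval 1.292% to 2.44%, counting error only).

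Myl2 was 0.004105% to 0.01773% of Myl2 plus Mylpf in vehicle and 1.183% to 2.738% in rebamipide libraries. Myl3 was 0.01007% to 0.02214% of Myl3 plus Myl1 against 1.349% to 3.14%, and Tnnt1 was 0.0184% to 0.1978% of Tnnt1 plus Tnnt3 against 0.9023% to 2.236%. The shares of these genes and of Myh7 had no overlap between the groups. The highest vehicle share rested on 8 reads for Myl2 and 18 for Myl3, so folds between shares are not given for them, while for Tnnt1, with 363 reads, the lowest rebamipide share was 4.562 times the highest vehicle share. The shares of Tnni1 (0.01507% to 0.9726% against 0.8423% to 1.544%), Myoz2 (2.332% to 5.76% against 4.671% to 10.29%), Tpm3, Casq2 and Atp2a2 overlapped. Of the 9 pairs whose fast partner was counted, 4 were above, 0 below and 5 overlapped. Nothing is read from this count, since the genes were picked on this contrast. No such share was computed for all genes, of which 24.5% had groups apart above by CPM after TMM scaling. The pair of Tnnc1 and Tnnc2 was not used, since Tnnc2, the fast troponin C, had 0 to 2 counts in every library of a tissue rich in fast troponin T and I. Tnnc2 shares 1662 of the 2807 bases it spans with Ube2c on the other strand, and whether reads there were left uncounted was not tested.

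**Figure D4:**
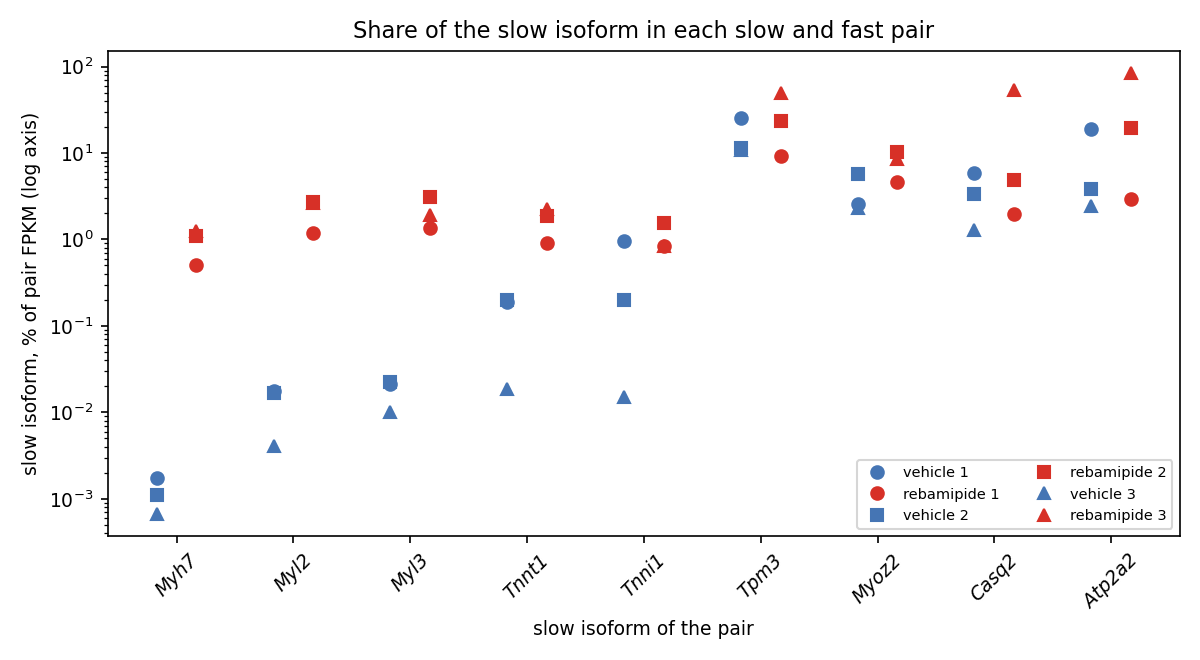
Share of the slow isoform in the summed FPKM of its slow and fast pair, in percent on a log axis, with 1 point per library (blue vehicle, red rebamipide). For Myh7, Myl2, Myl3 and Tnnt1 the rebamipide points lie between 0.5053% and 3.14%, above every vehicle point, and the other 5 pairs overlap.

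Summed, the slow genes other than Tnnc1 did not separate the groups. Their share was taken of their own FPKM plus that of the fast partners other than Tnnc2. It was 5.082%, 1.257% and 0.8336% in vehicle libraries and 1.67%, 6.478% and 39.5% in rebamipide libraries, which overlap. Atp2a2 and Tpm3 were the genes with the highest FPKM of the 10 in every library.

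Slow and fast partners are related in sequence, so shared reads were considered. Over the aligned bases of the longest coding sequences in GENCODE M21, identity ran from 62.1% (Myoz2 with Myoz1) to 78.7% (Myh7 with Myh2). The longest run of identical bases in any pair was 59, between Myh7 and Myh1, and no pair shared a run of 100 bases. That longest run is shown because it is where a short read could not tell the slow from the fast myosin.
Myh7 and Myh1: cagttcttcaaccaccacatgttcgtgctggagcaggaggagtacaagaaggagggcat
The read length is not given in the sources used here. The assignment of reads between the pairs was not tested. Vehicle libraries 2 and 3 had 61686 or more Myh1 counts, 276151 or more Myh4 counts, and 6 or fewer Myh7 counts.

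Within the family, the genes fell along a range rather than into a single pattern. Over the 6 libraries, log2 CPM of Myh7 and Myl3 had a Pearson r of 0.996, Myl2 and Tnnc1 of 0.996, and Myh7 and Myl2 of 0.989. Tnni1 was closest to Tnnt1 (r = 0.894), and Myoz2 to Casq2 (r = 0.754). Against the mean of Myh4, Tnnt3 and Tnni2, r was 0.912 for Myoz2, 0.75 for Casq2, 0.73 for Tpm3, 0.522 for Tnni1 and 0.422 for Tnnt1, and between 0.037 and 0.194 for Myh7, Myl2, Myl3 and Tnnc1. Atp2a2 was the only negative one, at -0.495. These are descriptions over 6 libraries, and differences in group, level of muscle RNA and depth enter every one of them.

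A score was made as the mean log2 CPM of 7 of the genes (Myh7, Myl2, Myl3, Tnnt1, Tnni1, Tnnc1 and Myoz2), and 13423 genes with a mean of at least 50 counts were ranked by their r with it. The 8 genes outside the family with the highest r were Sharpin (0.984), Smarcal1 (0.953), Nkain1 (0.95), Heatr5a (0.947), Rtraf (0.943), Il18bp (0.938), Adsl (0.929) and Dhx58 (0.922). None is a sarcomere gene. Sharpin had 770, 803 and 678 vehicle counts and 596, 474 and 411 rebamipide counts, the opposite order of groups to Myh7. Counts of Smarcal1, Heatr5a, Rtraf and Adsl were also lower in the rebamipide group, with no overlap. Those of Nkain1, Il18bp and Dhx58 overlapped between the groups. Dhx58 had 112 to 139 vehicle counts and 600, 144 and 82 rebamipide counts. The median r of the 8 genes, 0.945, was 0.222 on log2(FPKM + 1). That setting drops TMM scaling and also changes the small count added before the log, and these were not told apart. Of the family, Tnni1 (r = 0.778) and Myoz2 (r = 0.572) ranked below the other 5 genes of the score.

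Other genes of the slow fibre programme mostly had overlapping groups. Of 14 further slow-fibre genes, 13 were tested, 1 rose, 0 fell and 12 did not pass, where 14.1% of all genes tested rose and 6.51% fell, and their median log2 fold change was -0.68 (0.55 without the second vehicle library, -0.11 without the third rebamipide library and -1.22 without rebamipide library 1). The gene that rose was Fabp3, a fatty acid carrier of heart, slow muscle and brown fat, with 573, 1936 and 2438 vehicle counts and 10351, 18259 and 20379 rebamipide counts (log2 fold change 4.15, SE 0.68, edgeR quasi-likelihood adjusted p = 0.0138 over all genes). Unlike Myh7, Fabp3 was highest in the third rebamipide library. Mb, the myoglobin of oxidative fibres, had 2440, 19630 and 11378 counts against 14480, 4562 and 287 (log2 fold change -0.05, SE 1.24). Myl6b, a slow essential light chain also made outside muscle, had 95 to 322 counts against 246 to 424 (log2 fold change 1.35, SE 0.47, edgeR adjusted p = 0.0857). Fhl2 had a log2 fold change of -2.11 (SE 1.01) and did not pass.

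Genes common to all fibres showed wide and overlapping values. Of 17 shared sarcomere genes 0 were called with edgeR, where 14.1% of all genes tested rose and 6.51% fell, with a median of -0.40 (0.18 without the third rebamipide library, -2.23 without the first). Acta1, skeletal actin, had 77857, 355813 and 331785 counts against 329722, 57583 and 2121. Of 7 other fast-fibre genes 0 were called, with a median of -0.27 that ran from -2.30 without the first rebamipide library to 0.35 without the third vehicle library (0.31 without the third rebamipide library). Of 15 tested genes of calcium release and uptake 0 were called, with a median of -0.35 that ran from -2.10 without the first rebamipide library to 0.18 without the third. Of 9 tested genes of developing and regenerating muscle 0 were called, with a median of -1.15 that ran from -2.48 without the first rebamipide library to -0.12 without the second vehicle library (-0.60 without the third rebamipide library). The embryonic myosin Myh3 had 17 to 278 counts in vehicle and 2 to 21 in rebamipide libraries.

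The cardiac part of the name was checked against genes of the heart chambers. Of 15 such genes, 8 had at most 30 counts in every library. Nkx2-5 and Tbx20, transcription factors that define heart muscle, were at 0 in all 6 libraries, and Gata4 had at most 1 count. Myh6, the mouse ventricular myosin heavy chain, had 0, 0 and 13 vehicle counts and 8, 6 and 1 rebamipide counts, and Myl7, Nppa and Mybpc3 had at most 6. Tnni3, the cardiac troponin I, had 7 to 23 counts in vehicle and 0 to 3 in rebamipide libraries. Not all genes of the list were low. Actc1, the cardiac actin that developing skeletal muscle also makes, had 1332, 1642 and 791 counts against 1467, 201 and 38. Of the 7 chamber genes with enough reads to test, only Tbx5, a transcription factor of the heart and forelimb, was called, a share close to the 14.1% of all genes tested, with 34, 42 and 60 counts against 201, 584 and 453 (log2 fold change 4.05, SE 0.58, edgeR adjusted p = 0.0107). Tnnt2 had 57 to 163 counts against 2 to 16 (log2 fold change -2.59, SE 0.80, edgeR adjusted p = 0.0652).

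Of 26 regulators linked to slow and oxidative fibres, 2 rose, 1 fell and 23 did not pass, where 14.1% of all genes tested rose and 6.51% fell. Their median was -0.13 (-0.43 without the first vehicle library, 0.01 without the third rebamipide library, and -0.71 with total counts alone, where that of all genes was -0.78). Ppargc1b, a coactivator of mitochondrial genes, had 160 to 191 counts against 870 to 1558 (log2 fold change 3.72, SE 0.35, edgeR adjusted p = 0.00939), and Esrra, the nuclear receptor it works with, had 1482 to 1980 against 3631 to 5194 (2.27, SE 0.28, edgeR adjusted p = 0.00958). Prdm1, a repressor that favours slow fibres in fish and is also active in epidermis, fell from 1719 to 3614 counts to 49 to 334 (log2 fold change -3.14, SE 0.67, edgeR adjusted p = 0.0267). The calls of Fabp3, Tbx5, Ppargc1b, Esrra and Prdm1 were lost when the second vehicle library or the second rebamipide library was left out (edgeR adjusted p 0.0573 to 0.11), and that of Prdm1 also without the first vehicle library (0.0706).

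Markers of brown fat, fat and vessels were in part called higher, while none of the markers of other cells was called in either direction. Of 9 brown adipocyte markers 6 rose and 0 fell with edgeR, where 14.1% of all genes tested rose and 6.51% fell, and their mean log2 CPM was 1.59 to 2.97 in vehicle and 6.19 to 7.34 in rebamipide libraries. The 3 that did not pass, named here after their values were seen, were Elovl3 (log2 fold change -1.45, edgeR adjusted p = 0.0575, with every rebamipide value below the vehicle values), Zic1 (0.09) and Lhx8 (1.06). The summed CPM of these markers was 206.8 to 387.4 in vehicle and 4672 to 12460 in rebamipide libraries, and their mean log2 CPM was highest in rebamipide library 2. The slow isoforms were highest in library 1, with a mean log2 CPM of 5.93, 4.98 and 1.92 in rebamipide libraries 1 to 3. Of 6 adipocyte markers 4 rose (median 2.33) and of 6 endothelial markers 4 rose (median 1.82), while of 6 keratinocyte and 6 fibroblast markers 0 were called with edgeR (medians -2.47 and -1.21). Every rebamipide value still lay below all vehicle values for 4 of the keratinocyte and 1 of the fibroblast markers. For 0 of them did every value lie above, and 24% of all genes tested lay below. Of 8 smooth muscle markers 0 were called (median 0.14). Without the second vehicle library no gene of any list was called. The part of these cell types, and of the mitochondrial share, in the values of the slow isoforms was not tested, and with drug and tissue makeup changing together their effects cannot be told apart.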

How the data were processed

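RNA-seq was analysed from 1 deposited table of 6 libraries. The authors deposited raw read counts per gene and, beside them, FPKM values, which follow from the counts and gene lengths. The submitters' processing notes name fastp 0.22.0, HISAT2 2.1.0, HTSeq 0.9.1 and GRCm39. The strand setting and read length are not given in the sources used here.

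Counts were fitted with edgeR 4.0.16 in R 4.3.3 (filterByExpr, TMM, quasi-likelihood test, Benjamini-Hochberg over all genes tested). Each group had 3 libraries. Alternatives were DESeq2 1.42.0, limma 3.58.1 (voom, and log2(FPKM + 1) with a pseudocount of 1), other scalings and filters, a replicate block, a fast-isoform covariate and each library left out. The study's methods name DESeq2. Every fitted tool was tested on simulated data.

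The 10 genes and all lists were chosen with earlier results of these data known. Outside the family and its fast partners, genes were named from the 3 smallest p-values and 2 highest mean FPKM of a list, markers at 0 counts, and the 8 genes of highest r. Likeness used log2 CPM with a prior count of 2. A planned protein comparison was replaced by coding sequences of GENCODE M21, aligned with Biopython 1.88. Positions of genes are GRCm39 and promoter windows GRCm38.p6, and they were not combined. Mice were the replicates. Intervals cover counting error only.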

Additional observations from a re-analysis of the deposited data

How the results depend on the processing

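The fold changes of Fabp3, Tbx5, Ppargc1b, Esrra and Prdm1 kept their sign under every alternative that was run, but counts of calls depended on the scaling, the tool and single libraries. Genes called higher (2093) numbered 1258 with total counts alone. Genes called lower (968) numbered 3752 with total counts alone, 1512 with at least 10 counts in every library, 2534 with DESeq2 and 4809 with limma on log2(FPKM + 1). Those lower numbered 2161 when the thresholds of the study were put on the edgeR fit, while the study applied them to DESeq2. Leaving out 1 library gave 0 to 2810 higher and 0 to 1971 lower. Without the second vehicle library edgeR called 0 genes (4116 at an unadjusted p under 0.05), and without the second rebamipide library it called 1 (4062 unadjusted). Slow isoforms with groups apart (5) numbered 3 with total counts alone and with FPKM, where 13% of all genes tested were apart. With 1 library left out they numbered 5 to 7, beside 24.8% to 31.8% of all genes tested. Of the 10 slow isoforms 4 were called higher, 5 with DESeq2, 1 with the filter of 10 counts, 0 with limma-voom, limma on log2(FPKM + 1) or a replicate block, and 0 to 4 with 1 library left out. Over all genes, those called higher numbered 2719 with DESeq2, 2138 with limma-voom, 1401 with limma on log2(FPKM + 1) and 1432 with a replicate block. The filter of 10 counts left Myh7, Myl2, Myl3 and Tnni1 untested and called 2155 of 12659 genes higher. In the muscle lists outside the family, genes called higher (Fabp3, Tbx5, Ppargc1b and Esrra, 4 in all) numbered 9 with DESeq2 and 0 to 5 with 1 library left out. Those called lower (Prdm1, 1 in all) numbered 8 with total counts alone, 2 with the filter of 10 counts, 6 with DESeq2, 9 with FPKM and 0 to 4 with 1 library left out. The median log2 fold change of the 10 slow isoforms was 1.41 to 3.28 with 1 library left out, lowest without the first rebamipide library, 1.05 with limma on log2(FPKM + 1), and 0.4 with the filter of 10 counts, which leaves out Myh7, Myl2, Myl3 and Tnni1 since each had fewer than 10 counts in a library. Likeness (median r 0.945) was 0.222 on log2(FPKM + 1) and 0.722 among genes spanning at least 4 on the log2 scale, a limit chosen after seeing the data.

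Replicate numbers did not pair the libraries (r of deviations -0.02, -0.04 and 0, with no library closest to its own number). A replicate block gave 1432 genes higher, 855 lower, 3 muscle-list genes lower and a median of 1.78 for the slow isoforms.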

Other observations

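Among the 1878 genes whose log2 CPM spanned at least 4 over the 6 libraries, a limit chosen after the values were seen, the gene outside the family closest to the slow isoform score was Fasn, fatty acid synthase, with r = 0.774, and Ucp1 had r = 0.705. Fasn had 32226, 56457 and 91164 vehicle counts and 342110, 194677 and 159635 rebamipide counts. It is given as a description over 6 libraries.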
